A study of Homo sapiens with 6 samples.

Results

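The 10 genes described here encode heat shock chaperones of the cytosol and the mitochondrial matrix: HSPA1A, HSPA1B, HSPA8, HSP90AA1, HSP90AB1, HSPH1, DNAJB1, HSPB1, HSPD1 and HSPE1. They were chosen by name, with earlier results of these data known, as rows of a table of 20263 human genes. All 10 were among the 13769 genes left after the expression filter. Polyadenylated RNA of AsPC-1, an established human pancreatic ductal adenocarcinoma cell line, was sequenced in 6 libraries. There were 2 libraries each of cells transfected with the siRNA HMOX1si1, with the siRNA HMOX1si2, and with the negative control siRNA siControl. HMOX1 encodes heme oxygenase-1, which breaks down heme and is itself a stress-inducible enzyme, and the series asks how its depletion changes gene expression in these cells. All 3 groups were grown in the same serum-containing medium and received jetPRIME transfection, and no heat shock or other stress is named in the labels. The siRNA sequences and the harvest time are not stated in the sources used here.

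Molecular chaperones bind unfolded or partly folded proteins and help them reach or keep their native state. HSP70 proteins work in cycles of ATP binding and hydrolysis with J-domain partners and nucleotide exchange factors, and pass some clients on to HSP90, while the mitochondrial chaperonin HSP60 encloses matrix proteins under a lid of HSP10. Part of this set is kept at a high level in unstressed cells, and part is induced when the transcription factor HSF1 binds heat shock elements, inverted repeats of nGAAn, in promoters.

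The libraries held between 36144330 and 45068660 counts, and the 10 chaperones took between 0.629% and 0.707% of them. HMOX1 itself had 102 and 112 counts in the HMOX1si1 libraries, 55 and 53 in the HMOX1si2 libraries, and 328 and 378 in the siControl libraries. It was at 29.8% of siControl with HMOX1si1 (adjusted p = 0.00618) and at 13.9% with HMOX1si2 (adjusted p = 0.00951; p-values here are from edgeR's quasi-likelihood test, Benjamini-Hochberg adjusted over all genes tested), so the knockdown was deeper with HMOX1si2 (log2 difference between the siRNAs -1.10, adjusted p = 0.0284). All 8 epithelial markers were present, with a summed level of 15580 to 16330 TPM (a level per transcript length, computed here from the counts) with HMOX1si1, 19530 to 21170 TPM with HMOX1si2 and 19470 to 21030 TPM with siControl. KRT8, KRT18 and KRT19 fell with HMOX1si1 (log2 -0.68, -0.47 and -0.73, edgeR's adjusted p = 0.0155, 0.0461 and 0.0112). Of the 8 epithelial markers, 3 had a log2 change above 0 with HMOX1si1, CDH1 (0.33) and CEACAM6 (0.22) among them, and 0 were called higher. EPCAM had -0.05. All 4 endothelial markers, 5 of 7 fibroblast markers and 4 of 7 blood markers stayed under 1 TPM in every library, with CD3E and HBB at 0. The summed fibroblast markers were 66.8 to 73.7 TPM with HMOX1si1, 56.0 to 66.3 TPM with HMOX1si2 and 81.6 to 91.7 TPM with siControl, mostly from LUM. LUM was called lower with HMOX1si2 and on the average of both siRNAs, and 0 fibroblast markers were called higher in either. The summed blood markers were 228 to 254 TPM, 161 to 186 TPM and 162 to 177 TPM in the same order, mostly from CD68 and LYZ. CD68 had a log2 change of 0.71 with HMOX1si1 (edgeR's adjusted p = 0.0569), which did not pass, and LYZ was called lower with HMOX1si2. Whether these shifts bear on the chaperones was not tested. In bulk RNA, fewer cells of a type and less RNA per cell cannot be told apart. The labels do not say that replicates came from separate cultures, so the p-values reflect no more than the spread of these libraries, which may be technical.

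Heat shock elements were looked up in the RefSeq promoters of the 10 genes (GRCh38.p14, 250 bases before each transcription start). The searched motifs were the 3-unit element, in which GAA and its reverse complement TTC alternate with NN between neighbouring units (GAA first or TTC first), and the 2-unit element, GAA and TTC or TTC and GAA with NN between them. Both strands were read, and every 3-unit match also holds 2-unit matches. The 10 genes have 16 promoter entries, of which 4 (25%) hold a 3-unit element, against 155 of all 35116 promoters (0.441%). A 2-unit element was found in 8 of the 16, against 4067 of all 35116 promoters, or 11.6%. The 4 genes with a 3-unit element were HSPA8, HSP90AA1, HSP90AB1 and HSPD1, and HSPA1A, HSPA1B, DNAJB1 and HSPB1 had only the 2-unit element. No match lay in the windows of HSPE1 and HSPH1, which says only that these letters are not in those windows. Stretches of 30 bases are shown for the paralog pairs and for HSPD1, because the results below compare these genes with each other. They run 5′ to 3′ on the gene's own strand, and capitals mark the 3-unit element nearest the start (for HSPD1, 2 overlapping matches) or, for HSPA1A and HSPA1B, their 2-unit element. HSP90AA1 has a further 2-unit match nearer its start that lies outside the stretch shown.
HSPA1A (chr6:31815426-31815455, plus strand): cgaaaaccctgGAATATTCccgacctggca
HSPA1B (chr6:31827622-31827651, plus strand): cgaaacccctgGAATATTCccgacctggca
HSP90AA1 (chr14:102087112-102087141, minus strand): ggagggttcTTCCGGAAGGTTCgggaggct
HSP90AB1 (chr6:44247822-44247851, plus strand): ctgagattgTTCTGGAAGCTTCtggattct
HSPD1 (chr2:197500060-197500089, minus strand): cattTTCTGGAAAGTTCTGGAAccgagcga
The HSPD1 element lies between the inner RefSeq start of HSPD1 and the RefSeq start of HSPE1. Transcription from these starts runs in opposite directions, away from each other. The starts are 538 bases apart, and the 18-base element ends 227 bases from that HSPD1 start and 293 bases from the HSPE1 start. The window of the other HSPD1 entry (chr2:197500225-197500524, minus strand) lies beyond the element, which is therefore downstream of that entry's start. In the GENCODE coordinates given below, the spans of HSPD1 and HSPE1 overlap, and both contain the element. A match describes the letters only.

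In siControl cells the chaperones spanned a wide range of levels per length. HSPA8, the constitutive cytosolic HSP70, was highest at 2435 ± 3.50 TPM (SD, n = 2) and ranked 43 of 13753 genes. HSPB1, a small heat shock protein that holds unfolded proteins without ATP, followed at 1828 ± 144 TPM. HSP90AB1, the constitutive cytosolic HSP90, was at 888 ± 27.6 TPM. These 3 genes did not overlap each other in either control library. HSPD1, the mitochondrial HSP60, was at 444 ± 33.3 TPM, HSP90AA1, the inducible cytosolic HSP90, at 386 ± 23.1 TPM, and HSPE1, the mitochondrial HSP10, at 381 ± 3.28 TPM. HSP90AA1 and HSPE1 overlapped and have no order between them. The inducible HSP70 genes HSPA1A and HSPA1B were at 142 ± 4.16 and 128 ± 5.59 TPM, DNAJB1, a J-domain partner of HSP70, at 121 ± 0.211 TPM, and HSPH1, the HSP110 exchange factor, at 43.0 ± 5.11 TPM. With union exon lengths in place of the principal transcript the order of the means was the same, but the overlaps were not: HSP90AA1 then had 400 and 368 TPM, overlapping HSPD1 (419 and 376 TPM), and HSPE1 (281 and 285 TPM) lay below both. By the principal transcript, HSPE1 was at 317 ± 45.3 TPM with HMOX1si1 and 250 ± 39.7 TPM with HMOX1si2 (SD, n = 2 each). HSP90AA1 was at 476 ± 7.55 TPM with HMOX1si1 and 486 ± 0.874 TPM with HMOX1si2.

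The first question is whether any chaperone changed with each siRNA. With HMOX1si1, 0 of the 10 genes passed the adjusted threshold of 0.05, where 10.0% of all genes tested did. With HMOX1si2, 1 of 10 passed, HSPE1, which fell, where 5.73% of all genes tested passed and 2.67% passed and fell. On the average of both siRNAs against siControl, 1 of 10 passed, again HSPE1, which fell, where 10.1% of all genes passed and 4.93% passed and fell. Between the siRNAs (HMOX1si2 minus HMOX1si1), 0 of 10 passed against 3.62%. A count of 0 or 1 among 10 genes is near these backgrounds. At an unadjusted p under 0.05, edgeR's test had 3 of the 10 genes with HMOX1si1 (30.8% of all genes), 4 with HMOX1si2 (25.9%), 4 on average (31.3%) and 1 between the siRNAs (20.6%). DESeq2, run as another tool, called 1, 1, 3 and 0 of them in the same order. The median log2 change of the 10 genes was 0.05 with HMOX1si1, 0.08 with HMOX1si2 and 0.09 on average, beside medians of all genes of -0.0013, 0.0024 and -0.0045. Both siRNAs are set against the same 2 siControl libraries, so the 2 comparisons are not independent.

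**Figure D1:**
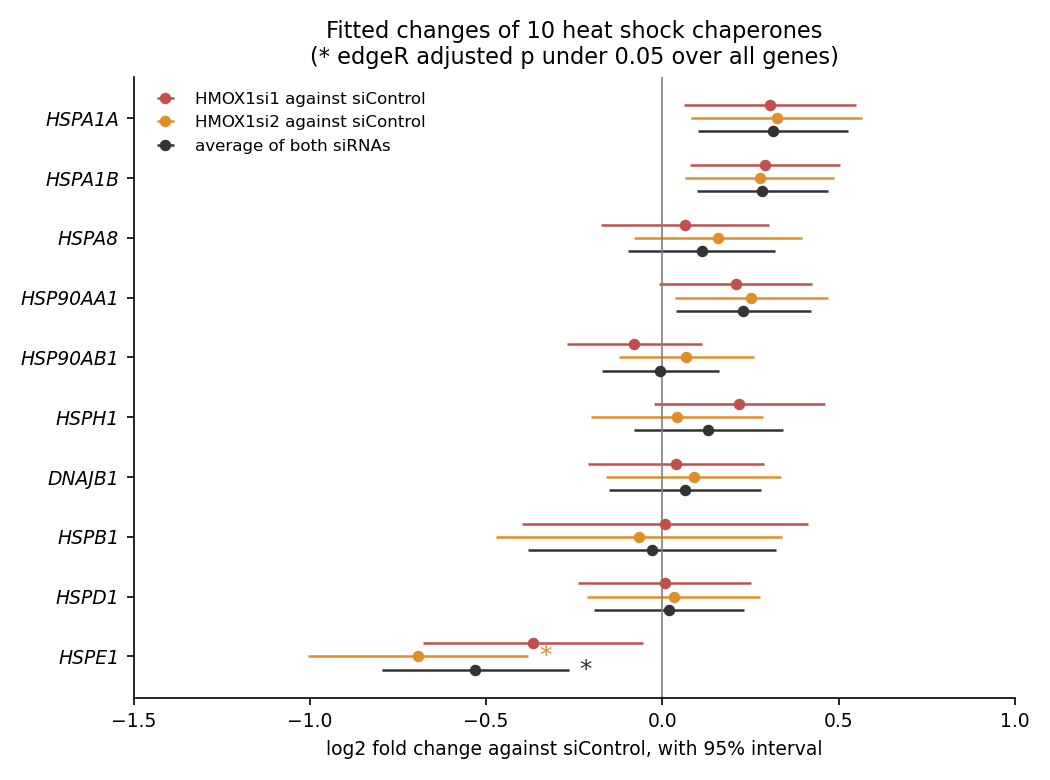
Log2 fold change (horizontal axis) of each of the 10 chaperones with HMOX1si1, with HMOX1si2 and on average of both, each against siControl. Points are the fitted values of edgeR, lines their 95% intervals, and asterisks mark an adjusted p under 0.05. HSPE1 lies left of 0 in all 3, at -0.69 with HMOX1si2, and HSPA1A and HSPA1B lie right of 0 with each siRNA at 0.28 to 0.32, without passing the adjusted threshold.

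Libraries that did not overlap were counted as well. With HMOX1si1, 4 of the 10 genes were higher in both libraries than in both siControl libraries and 2 were lower, where 31.9% of all genes were higher and 31.9% lower. With HMOX1si2, 6 were higher and 1 lower, where 28.9% of all genes were higher and 28.2% lower. With all 4 knockdown libraries on 1 side of both controls, 3 were higher (HSPA1A, HSPA1B and HSP90AA1) and 1 lower (HSPE1), where 18.7% of all genes were higher and 18.2% lower. Between the siRNAs, 1 gene was higher with HMOX1si2 (HSP90AB1) and 2 were lower (HSPE1 and HSPH1), where 25.3% of all genes were higher and 26.0% lower.

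HSPE1 (ENSG00000115541, chr2:197499994-197503457, plus strand, GRCh38 with GENCODE 29) encodes HSP10, the lid of the mitochondrial chaperonin. Its level was 140 and 120 CPM (counts scaled to each library's size after TMM) in the HMOX1si1 libraries, 95.2 and 112 CPM in the HMOX1si2 libraries, and 161 and 174 CPM in the siControl libraries. All 4 knockdown libraries lay below both controls, and both HMOX1si2 libraries lay below both HMOX1si1 libraries. It fell to 61.8% of siControl with HMOX1si2 (95% interval 49.8 to 76.8%, log2 fold change -0.69, SE 0.13, adjusted p = 0.0388, edgeR's quasi-likelihood test). With HMOX1si1 it was at 77.5% (log2 fold change -0.37, SE 0.13, edgeR's adjusted p = 0.116), which did not pass. The average of both siRNAs was 69.2% (57.6 to 83.2%, log2 -0.53, SE 0.11, edgeR's adjusted p = 0.0381). HMOX1si2 minus HMOX1si1 was -0.33 on the log2 scale (interval -0.64 to -0.01, edgeR's adjusted p = 0.228), which did not pass.

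**Figure D2:**
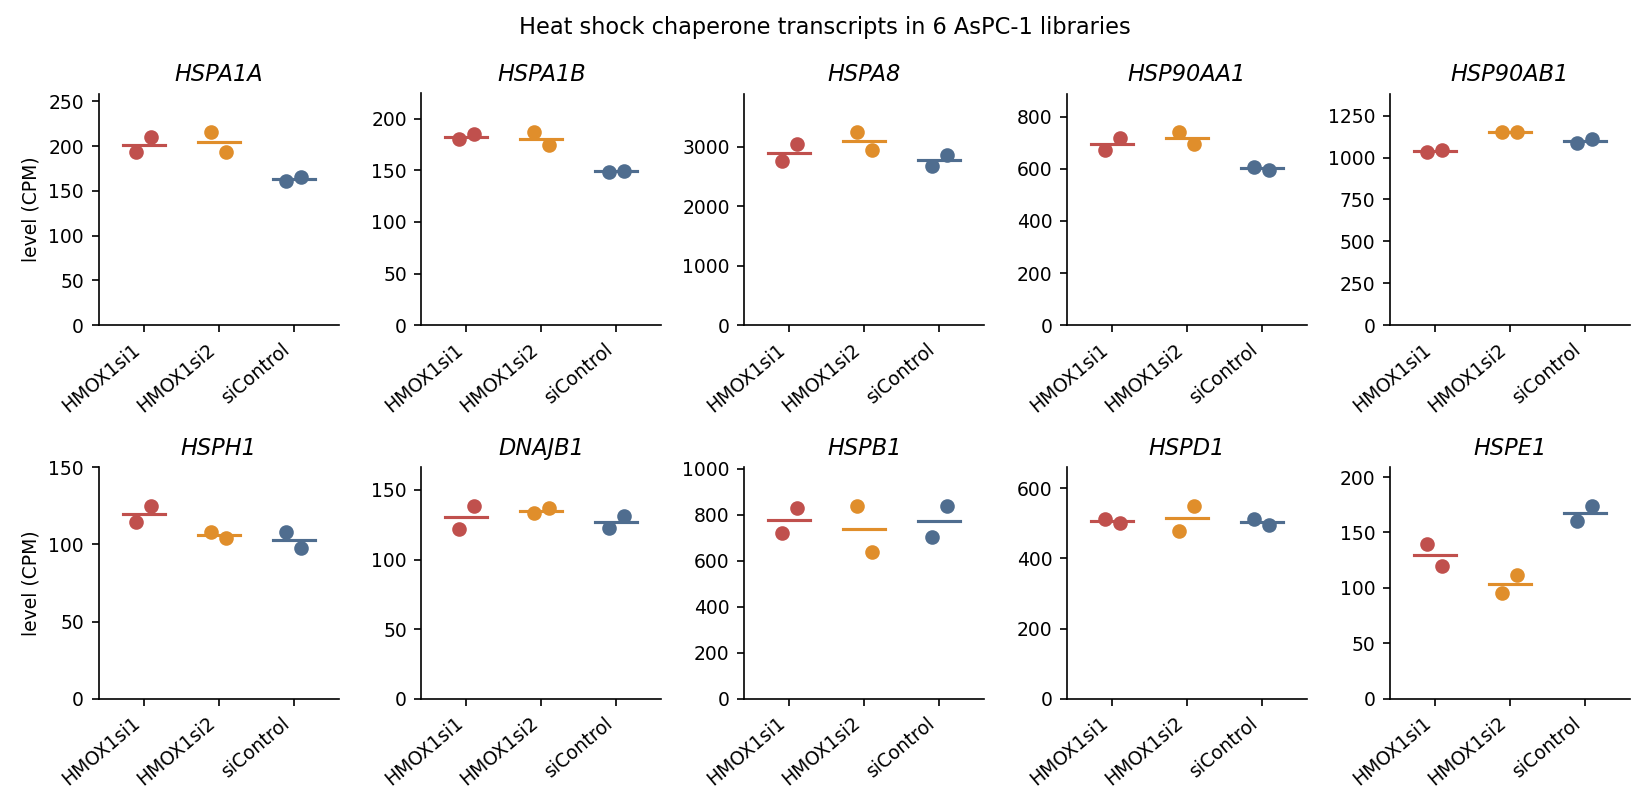
CPM of each of the 10 chaperones (vertical axes) in each library, grouped as HMOX1si1, HMOX1si2 and siControl, with points for libraries and horizontal lines for group means. HSPE1 sits between 95.2 and 140 CPM in the 4 knockdown libraries, below the 161 and 174 CPM of siControl, while the HSPD1 libraries of the 3 groups overlap.

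The HSPE1 call depended on the settings. It was lost on the average of both siRNAs without either siControl library (adjusted p = 0.116 without replicate 1 and 0.216 without replicate 2), without either HMOX1si1 library (0.0638 and 0.107) and without HMOX1si2 replicate 1 (0.0726), and kept without HMOX1si2 replicate 2 (edgeR's adjusted p = 0.0358). The HMOX1si2 call was lost when any of the 6 libraries was left out (edgeR's adjusted p between 0.0562 and 0.189). With plain library totals in place of TMM scaling, HSPE1 had an edgeR adjusted p of 0.0558 with HMOX1si2 and 0.0570 on average. The log2 change stayed between -0.59 and -0.47 on average in the fits without a library.

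HSPD1 (chr2:197486581-197516737, minus strand) encodes HSP60, the barrel that HSP10 closes, and had 511 and 501 CPM with HMOX1si1, 480 and 551 CPM with HMOX1si2, and 513 and 494 CPM with siControl. The 3 groups overlapped. Its average log2 change was 0.02 (95% interval -0.19 to 0.23, edgeR's adjusted p = 0.898), an interval that does not reach the average fall of HSPE1. The ratio of HSPE1 to HSPD1 counts was 0.273 and 0.239 with HMOX1si1, 0.199 and 0.203 with HMOX1si2, and 0.313 and 0.353 with siControl. Every knockdown library lay below both controls. The HSPD1 principal transcript is longer (2455 bases against 950 for HSPE1), and the ratio moves with the length trend described below. With an offset for transcript length the log2 change with HMOX1si1 was -0.10 for HSPE1 and 0.05 for HSPD1, and with HMOX1si2 it was -0.49 for HSPE1 and 0.06 for HSPD1.

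**Figure D3:**
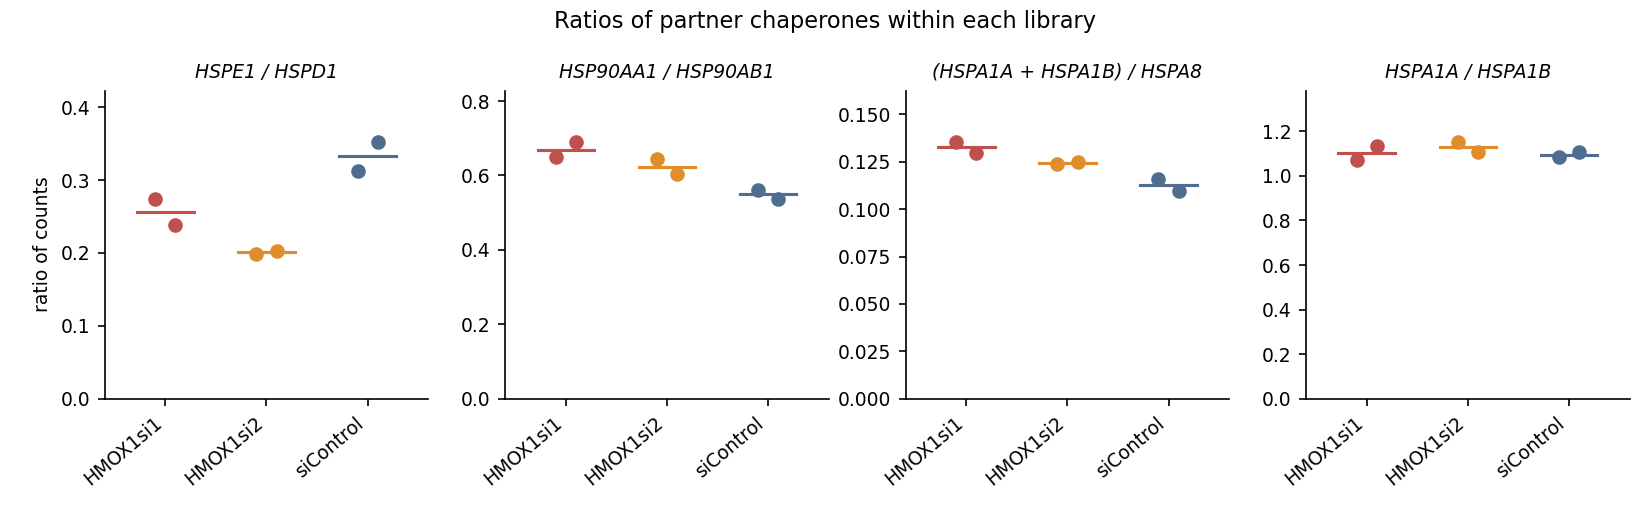
Ratios between chaperones (vertical axes, no unit) in each library, grouped as HMOX1si1, HMOX1si2 and siControl, with points for libraries and lines for group means. HSPE1 over HSPD1 is 0.199 to 0.273 in the knockdown libraries and 0.313 and 0.353 in siControl, and HSP90AA1 over HSP90AB1 is 0.603 to 0.690 in the knockdown libraries and 0.560 and 0.538 in siControl.

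HSPE1 and HSPD1 share 281 exonic bases on opposite strands, and HSPE1 shares 192 exonic bases with the readthrough gene HSPE1-MOB4, out of 1977 exonic bases of HSPE1. The counting method is not stated, so how reads in these stretches were assigned is not known. HSPE1-MOB4 had 52 and 53 counts with HMOX1si1, 83 and 56 with HMOX1si2, and 59 and 148 with siControl, against 4130 to 7732 counts of HSPE1 over the 6 libraries. When the counts of HSPD1 and HSPE1 were added together, the sum changed by -0.08 with HMOX1si1, -0.12 with HMOX1si2 and -0.10 on average (log2, edgeR's adjusted p = 0.484 on average), since HSPD1 carries most of the counts.

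Transcript length moved with the comparisons, and HSPE1 has a short principal transcript of 950 bases. Among genes averaging 5 or more on the log2 CPM scale, the 220 genes with principal transcripts of 950 bases or less had a median log2 change of -0.38 with HMOX1si1, -0.25 with HMOX1si2 and -0.31 on average, and the 5782 longer genes had 0.04, 0.02 and 0.03. Of the short genes, 52.3% were lower than HSPE1 with HMOX1si1, 4.55% with HMOX1si2 and 15% on average. With an offset for transcript length, a setting added after the data were seen, the log2 change of HSPE1 was -0.10 with HMOX1si1 (edgeR's adjusted p = 0.422), -0.49 with HMOX1si2 (0.0292) and -0.30 on average (0.0487). The fall with HMOX1si2 passed the threshold with and without the offset, and was smaller with it. The offset was fitted on these same 6 libraries and was not combined with leaving out a library. The source of the length trend was not tested.

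**Figure D4:**
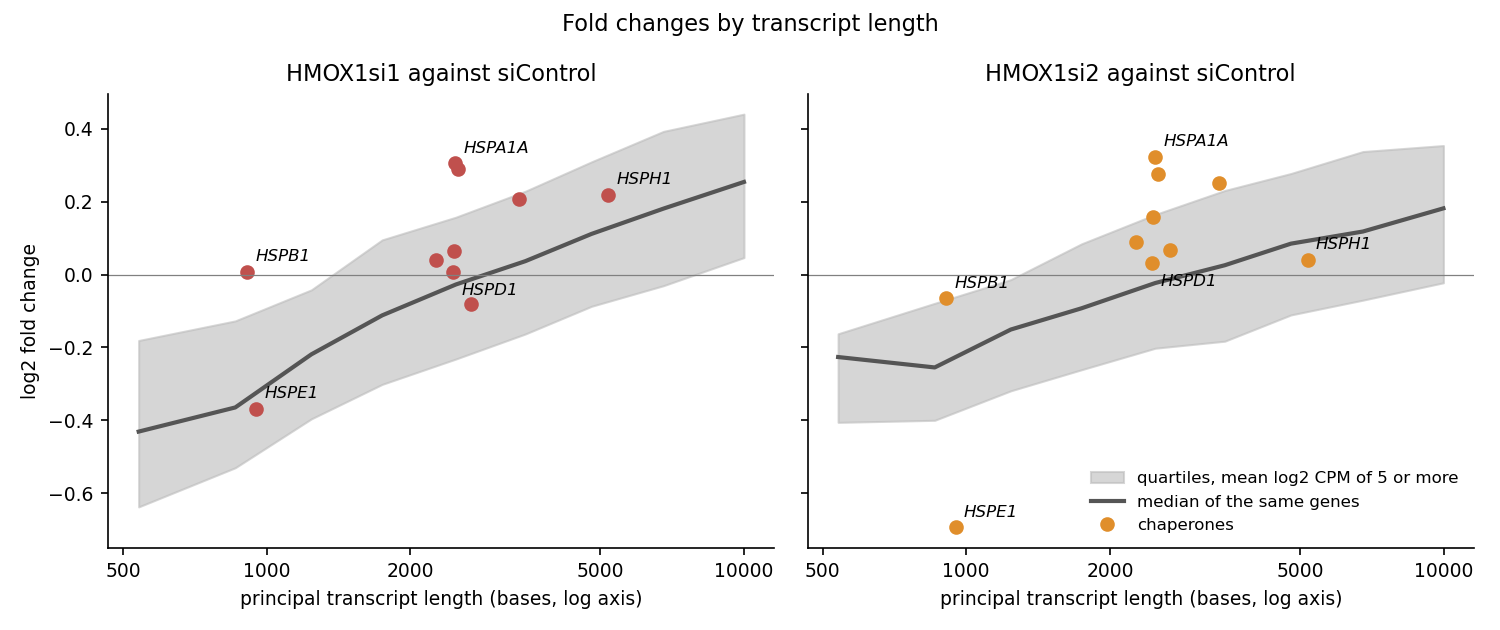
Log2 fold change against principal transcript length (log axis, bases) for genes averaging 5 or more on the log2 CPM scale, shown as the median (line) and quartiles (grey band) of each length class, with 1 panel for each siRNA against siControl and the 10 chaperones as points, 5 of them named. The shortest class has medians of -0.43 with HMOX1si1 and -0.23 with HMOX1si2, the longest 0.25 and 0.18, and HSPE1 lies at -0.37, near the median of its class, with HMOX1si1 and at -0.69, below the lower quartile, with HMOX1si2.

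HSPB1 (chr7:76302544-76304295, plus strand), with a principal transcript of 909 bases, is the other short gene of the set. It had 720 and 829 CPM with HMOX1si1, 835 and 637 CPM with HMOX1si2, and 701 and 839 CPM with siControl. The replicates of each group lay as far apart as any groups did. Its average log2 change was -0.03 (95% interval -0.38 to 0.32, edgeR's adjusted p = 0.912), the widest interval among the 10 genes. With the length offset its average change was 0.23 (edgeR's adjusted p = 0.420), the opposite sign and again not called.

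The inducible HSP70 genes HSPA1A (chr6:31815464-31817946, plus strand) and HSPA1B (chr6:31827735-31830255, plus strand) were higher in every knockdown library than in both controls, without passing the adjusted threshold. HSPA1A had 194 and 210 CPM with HMOX1si1, 216 and 193 CPM with HMOX1si2, and 161 and 165 CPM with siControl. HSPA1B had 180 and 185 CPM with HMOX1si1, 187 and 174 CPM with HMOX1si2, and 149 and 150 CPM with siControl. The 2 siRNAs overlapped each other for both genes. The average log2 change was 0.31 for HSPA1A (SE 0.09, 95% interval 0.10 to 0.53, edgeR's adjusted p = 0.0736) and 0.28 for HSPA1B (SE 0.08, edgeR's adjusted p = 0.0676). DESeq2 called both on average (adjusted p = 0.0212 and 0.0146) and HSPA1B with HMOX1si1 (0.0343), and with the length offset edgeR called HSPA1B on average (adjusted p = 0.0435).

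These 2 genes are near-identical copies, so their separate values are uncertain. Their coding sequences differ at 4 of 1923 bases in the reference transcripts (99.8% identity), and the 641 encoded amino acids do not differ. Of the 100-base windows along the HSPA1A coding sequence, 91.0% also occur in HSPA1B. The promoter stretches shown above carry the same 2-unit element in both genes. Summed over the 2 genes, the log2 change was 0.30 with HMOX1si1 (SE 0.09, edgeR's adjusted p = 0.0917), 0.30 with HMOX1si2 (edgeR's adjusted p = 0.114), and the average of both was 0.30 (SE 0.08, adjusted p = 0.0693). The ratio of HSPA1A to HSPA1B lay between 1.07 and 1.15 in the knockdown libraries, and was 1.08 and 1.11 in siControl.

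HSPA8 (chr11:123057489-123063230, minus strand) made up 42.6% to 45.2% of the summed CPM of the 10 genes. It had 2759 and 3044 CPM with HMOX1si1, 3250 and 2944 CPM with HMOX1si2, and 2677 and 2872 CPM with siControl. Both HMOX1si2 libraries and HMOX1si1 replicate 2 (3044 CPM) lay above both controls. Its average log2 change was 0.11 (95% interval -0.10 to 0.32, edgeR's adjusted p = 0.410). The inducible HSP70 sum over HSPA8 was 0.136 and 0.130 with HMOX1si1, 0.124 and 0.125 with HMOX1si2, and 0.116 and 0.110 with siControl, so all 4 knockdown libraries lay above both controls.

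The other members of the HSP70 cycle did not pass. DNAJB1 (chr19:14514770-14529770, minus strand) had 122 and 139 CPM with HMOX1si1, 133 and 137 CPM with HMOX1si2, and 122 and 131 CPM with siControl. HSPH1 (chr13:31134974-31162388, minus strand) had 115 and 125 CPM with HMOX1si1, 108 and 104 CPM with HMOX1si2, and 108 and 97.8 CPM with siControl. HSPH1 was higher than both controls only in the HMOX1si1 libraries. DNAJB1 was higher than both controls in both HMOX1si2 libraries and in HMOX1si1 replicate 2 (139 CPM). The average log2 change was 0.06 for DNAJB1 (95% interval -0.15 to 0.28, edgeR's adjusted p = 0.655) and 0.13 for HSPH1 (-0.08 to 0.34, edgeR's adjusted p = 0.351). DNAJB1 shares 211 exonic bases with TECR, and HSP90AA1 shares 197 with WDR20.

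The inducible HSP90 gene HSP90AA1 (chr14:102080738-102139699, minus strand) had 671 and 720 CPM with HMOX1si1, 741 and 694 CPM with HMOX1si2, and 607 and 597 CPM with siControl. All 4 knockdown libraries lay above both controls. Its average log2 change was 0.23 (95% interval 0.04 to 0.42, edgeR's adjusted p = 0.111), which did not pass. The constitutive HSP90AB1 (chr6:44246166-44253888, plus strand) had 1035 and 1043 CPM with HMOX1si1, 1150 and 1151 CPM with HMOX1si2, and 1084 and 1111 CPM with siControl. It was below both controls with HMOX1si1 and above both with HMOX1si2, and the difference between the siRNAs was 0.15 on the log2 scale (95% interval -0.04 to 0.34, edgeR's adjusted p = 0.360). Its average change was -0.01 (edgeR's adjusted p = 0.964), with the sign turned to 0.01 under plain library totals.

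Ratios within each library do not depend on the scaling between libraries, but those of genes of unequal length are not free of the length trend. They were chosen after the values of the genes had been seen, so they are descriptions. HSPE1 over HSPD1 averaged 0.229 ± 0.0349 in the 4 knockdown libraries and 0.333 ± 0.0279 in the 2 siControl libraries (SD). HSP90AA1 over HSP90AB1 averaged 0.647 ± 0.0357 in knockdown libraries and 0.549 ± 0.0158 in siControl, and the inducible HSP70 sum over HSPA8 averaged 0.128 ± 0.0054 and 0.113 ± 0.0042 in the same order. The exact two-sided permutation test over 4 against 2 libraries gave p = 0.0667 for each of these 3 ratios (adjusted over 4 ratios, 0.0889), which is the smallest p this design can give. Because the ratios were picked after the values were seen, this p-value cannot serve as support. The test also treats the 4 libraries of 2 siRNAs as alike. HSPA1A over HSPA1B averaged 1.12 ± 0.035 in knockdown libraries and 1.09 ± 0.0158 in siControl, with an exact permutation p of 0.467.

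Genes that work with the 10 chaperones were counted from lists of partners. Of 15 HSP90 cochaperones tested, 2 rose (AHSA1 and FKBP5) and 0 fell on average by edgeR's test, near the 10.1% of all genes called. AHSA1, which activates the HSP90 ATPase, had 95 and 89.3 CPM with HMOX1si1, 88.1 and 93.1 CPM with HMOX1si2, and 62.3 and 71.5 CPM with siControl. FKBP5, an immunophilin that regulates steroid receptors bound to HSP90, had 83.4 and 86.1 CPM with HMOX1si1, 104 and 97.8 CPM with HMOX1si2, and 60.6 and 56.6 CPM with siControl. For both genes every knockdown library lay above both controls. The average log2 change was 0.45 for AHSA1 (SE 0.09, edgeR's adjusted p = 0.0391) and 0.66 for FKBP5 (SE 0.08, edgeR's adjusted p = 0.0140), and FKBP5 passed with each siRNA alone (0.0250 with HMOX1si1 and 0.0196 with HMOX1si2), AHSA1 with HMOX1si1 (0.0478) and not with HMOX1si2 (0.0692). DESeq2 also called AHSA1 with HMOX1si2 (adjusted p = 0.0115), as did edgeR with the length offset (adjusted p = 0.0195), whereas the AHSA1 call with HMOX1si1 was lost under library totals (0.0533), without the expression filter (0.0527) and with only the groups compared (0.0551). AHSA1 lost its average call when any of the 6 libraries was left out (adjusted p between 0.0583 and 0.148), and FKBP5 lost its own without either siControl library or without HMOX1si1 replicate 2 (up to 0.115).

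FKBP4, the immunophilin of the same family that acts with HSP90 on steroid receptors, differed between the siRNAs. It had 102 and 109 CPM with HMOX1si2, 166 and 162 CPM with HMOX1si1, and 126 and 139 CPM with siControl. Its log2 difference, HMOX1si2 minus HMOX1si1, was -0.64 (SE 0.10, edgeR's adjusted p = 0.0264), and neither siRNA passed edgeR's test against siControl (0.31 with HMOX1si1, adjusted p = 0.0886, and -0.33 with HMOX1si2, adjusted p = 0.102). DESeq2 called FKBP4 with HMOX1si1 (0.31, adjusted p = 0.0414) and with HMOX1si2 (-0.33, adjusted p = 0.0385). The difference lost its call when any of the 6 libraries was left out (adjusted p between 0.0574 and 0.152) and with only the libraries of the 2 siRNAs (edgeR's adjusted p = 0.0577). Among the other cochaperones with the smallest p, UNC45A had 0.36 and SUGT1 -0.27 on average (log2), neither past the threshold.

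Among 10 exchange factors and regulators of HSP70, 1 fell and 0 rose on average by edgeR's test, where 10.1% of all genes were called and 4.93% were called and lower. HSPA4L, an HSP110 relative of HSPH1, had 9.16 and 11.2 CPM with HMOX1si1, 8.04 and 7.16 CPM with HMOX1si2, and 13.3 and 12.8 CPM with siControl. All 4 knockdown libraries lay below both controls. The log2 change was -0.78 with HMOX1si2 (SE 0.15, edgeR's adjusted p = 0.0428), -0.36 with HMOX1si1 (adjusted p = 0.167) and -0.57 for both siRNAs averaged (adjusted p = 0.0455), and the averaged call was lost when any of the 6 libraries was left out (0.0656 to 0.194). BAG1 had -0.28, BAG3 0.34 and ST13 0.19 on average (log2), none past the threshold.

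On average, 0 genes passed edgeR's adjusted threshold among 9 other HSP70 family genes, 12 J-domain partners, 16 mitochondrial chaperones and proteases, 14 subunits of TRiC and prefoldin, 4 heat shock factors and their regulators, and 3 small heat shock proteins, where 10.1% of all genes passed. At an unadjusted p under 0.05 these lists had 1, 1, 2, 4, 1 and 0 genes in the same order, where 31.3% of all genes did, and DESeq2 called 0, 0, 1, 0, 0 and 0 of them. In the mitochondrial list, GRPEL1, the exchange factor of the mitochondrial HSP70, had the smallest p, with an average log2 change of -0.38 (edgeR's adjusted p = 0.0815), and CLPB, a disaggregase, had -0.31. The mitochondrial HSP70 gene HSPA9 had 0.03 and the mitochondrial HSP90 gene TRAP1 -0.03. The median of the mitochondrial list was -0.16 on average, and that of TRiC and prefoldin, which fold actin and tubulin, was -0.18, with 1 of its 14 genes above 0, beside a median of all genes of -0.0045. The principal transcripts of the TRiC and prefoldin list had a median length of 1960.5 bases against 3044 for all genes tested, and with the length offset the medians were -0.08 for that list and -0.04 for the mitochondrial list. In the TRiC and prefoldin list CCT7 had -0.28, PFDN6 -0.35 and VBP1 -0.29 on average.

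**Figure D5:**
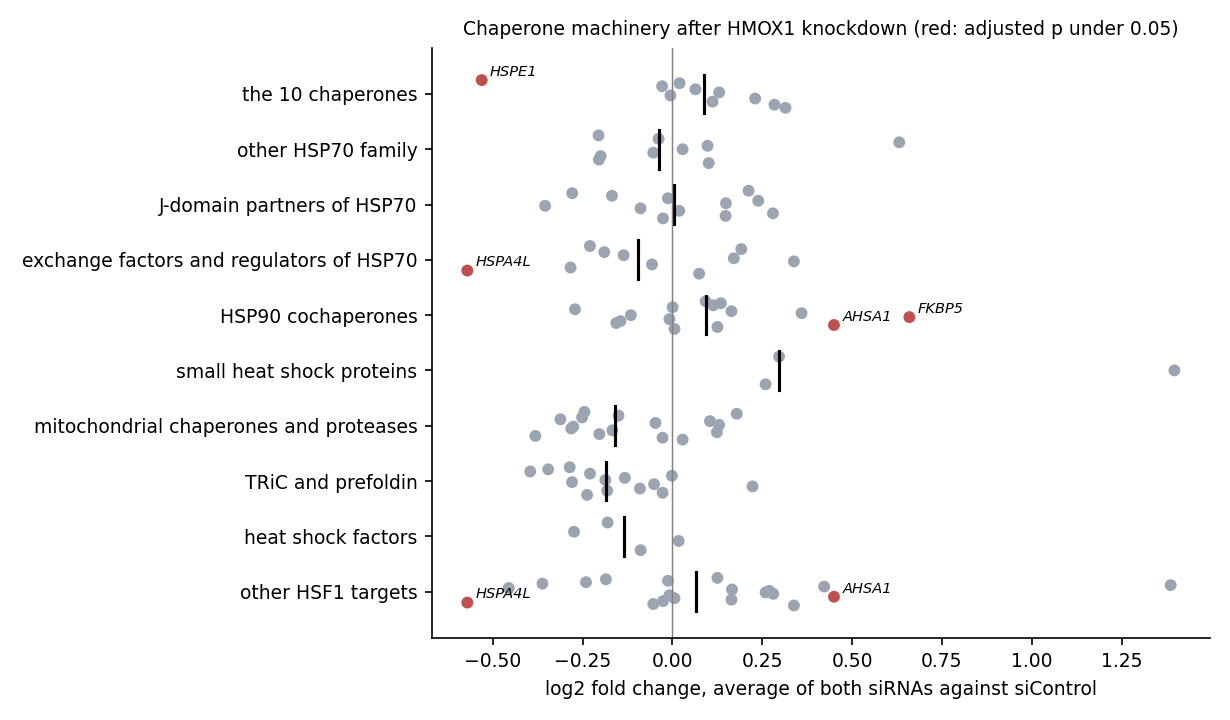
Log2 fold change on average of both siRNAs against siControl (horizontal axis) of every tested gene in each list, with the list median as a vertical line and genes past edgeR's adjusted threshold in red and named. AHSA1 and FKBP5 are the red points right of 0, HSPE1 and HSPA4L those left of 0.

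HSF1, the regulator of the heat shock response, had an average log2 change of -0.09 (edgeR's adjusted p = 0.708), and HSF2 had 0.02. HSPA5, the HSP70 of the endoplasmic reticulum, had -0.20 on average (edgeR's adjusted p = 0.137). HSPA6, a strictly heat-inducible HSP70, had 53 and 44 counts with HMOX1si1, 36 and 63 with HMOX1si2, and 54 and 40 with siControl, and the groups overlapped. Of 20 other HSF1 targets, 1 rose (AHSA1) and 1 fell (HSPA4L) on average by edgeR's test, both also in the lists above, and 10.1% of all genes were called. DESeq2 called 3 of the 20 on average (AHSA1, HSPA4L and ATF3). The median of these targets was 0.07 on average beside -0.0045 for all genes, and MRPL18 had -0.36 and CACYBP -0.24 without passing. ATF3, a stress-induced transcription factor chosen after its value was seen, lay farthest to the right among these targets at 1.39 on average (edgeR's adjusted p = 0.115), and HSPB6 did so among the small heat shock proteins at 1.40 (adjusted p = 0.402) on 0 to 17 counts a library. Among the list genes named, AHSA1, UNC45A, PFDN6, HSF1, CACYBP and TRAP1, and the markers KRT8 and KRT18 (with each other), share exonic bases with another gene, so their counts are uncertain.

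Genes most like the chaperones across the 6 libraries were found by the root mean square distance between centred log2 CPM values over 10828 genes. Those closest to HSPE1 were AIFM2 (distance 0.0357), ARPC5 (0.0495), TRMU, H2AZ2 and RNASEH2C (0.0607), beside a root mean square of 0.302 for the HSPE1 pattern itself. Those closest to the sum of HSPA1A and HSPA1B were RBM5 (0.0242), IL17RA, CACTIN, CAPN15 and SUPT16H (0.0319), with 0.148 for the pattern itself. DNAJB1 was closest to DAP3 (0.0266), ATG4C, GNPTG, MTA3 and BBS2, with 0.0718 for the pattern itself. AIFM2, RNASEH2C, RBM5, DAP3, GNPTG and BBS2 overlap another gene in an exon, so their counts are uncertain.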

How the data were processed

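Polyadenylated RNA of 6 AsPC-1 libraries was sequenced, per the labels' protocols. The deposited table holds whole numbers per Ensembl gene, read here as estimated counts because no label states a unit. The labels name no aligner, counter or strand setting. GRCm38 and mm10, both mouse, are the builds in the submitters' processing notes, although the 20263 identifiers are all human, and which build served for counting is unknown. Low values are mostly even numbers, so mates of a fragment may have been counted apart. The table has 0 unused sample columns.

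Groups came from the sample titles. Genes were filtered with filterByExpr, TMM-scaled and fitted (1 mean for each of the 3 groups, all 6 libraries together) in edgeR 4.0.16 (glmQLFit and glmQLFTest, R 4.3.3, limma 3.58.1), with Benjamini-Hochberg adjustment over 13769 genes and a threshold of 0.05. Rounding changed nothing, as all values were whole. Standard errors are the absolute log2 change divided by the square root of F, and 95% intervals use the t distribution with the fit's degrees of freedom. CPM uses TMM-scaled library sizes. TPM uses principal transcript lengths of GENCODE 29 (GRCh38), which also gave coordinates and exon overlaps. Depth was 36144330 to 45068660 counts, and replicates differed beyond sampling noise in each group (chi-square per degree of freedom 38.5 to 85.2). The tests were checked on simulated counts with 200 genes changed in HMOX1si1. Of the changed genes tested, 55.7% were recovered at an absolute log2 change of 1 and 88.8% at 2. In the same comparison 13 unchanged genes were called. Recovery of changes smaller than 1 on the log2 scale was not examined.

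The 10 genes, the lists of partners and the ratios were chosen with earlier results of these data known. The text names HMOX1, all 10 genes, up to 4 genes per list with the smallest p on average plus any called, and the 5 genes most like each of 3 patterns. HSPA6, HSPA9, TRAP1 and ATF3 were added after their values were seen. Alternatives were DESeq2 1.42.0, DESeq2 size factors, library totals, no expression filter, only the groups compared, a replicate block, summed paralog and neighbour counts and leaving out each library. Settings added after seeing the data were a crossed block, HSPE1-MOB4 counts added to HSPE1, and an offset for transcript length (a lowess curve of each library's deviation on log2 length, span 0.3).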

Additional observations from a re-analysis of the deposited data

How the results depend on the processing

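Over the alternatives, 600 values of single chaperones were recomputed, of which 541 kept direction and side of the threshold, 18 lost a call, 4 gained one and 37 changed sign. Only HSPE1, with HMOX1si2 and on average, was called in the reported fit, so only its values could lose a call. HSPE1 kept its call in 5 of 15 alternatives with HMOX1si2 and in 6 of 14 on average. Under summed counts, the value of a chaperone is that of its pair. All values that changed sign had an absolute log2 change of at most 0.0733 in the reported fit, and none was called. DESeq2 called 2579, 1845, 2613 and 1367 genes (HMOX1si1, HMOX1si2, average, HMOX1si2 minus HMOX1si1) against 1381, 789, 1389 and 499 in edgeR, with 1 of the 10 chaperones called with HMOX1si1 and 3 on average. Library totals called 0 of the 10 with HMOX1si2 and 0 on average (sign changes: HSP90AB1 0.00997 and FKBP4 0.00842 on average). With only the groups compared, 179 genes were called with HMOX1si2 and 156 between the siRNAs, and 0 chaperones with HMOX1si2 (HSPE1 adjusted p = 0.0639). Deviations of same-numbered libraries had correlations across 10838 genes of -0.07 (siControl with HMOX1si1), 0.06 (siControl with HMOX1si2) and -0.35 (HMOX1si1 with HMOX1si2). With 2 libraries a group, these cannot settle whether the numbers pair the samples. The -0.35 means that replicate 1 of either siRNA tended to deviate with replicate 2 of the other. The replicate block called 481, 45, 255 and 87 genes and 0 chaperones with HMOX1si2 or on average (HSPE1 -0.69 and -0.53, edgeR's adjusted p = 0.0949 and 0.0841). Crossed numbers between the siRNAs, tried after seeing the data, called 312 genes for that difference. The difference between the siRNAs lost its call under the replicate block, the crossed block and only the groups compared for HMOX1 (edgeR's adjusted p = 0.0770, 0.0578 and 0.0925) and FKBP4 (0.0804, 0.0514 and 0.0577). The replicate block also ended the calls of FKBP5 with HMOX1si1 and HMOX1si2 (0.0677 and 0.0644), of AHSA1 with HMOX1si1 and on average (0.0991 and 0.0866) and of HSPA4L with HMOX1si2 and on average (0.100 and 0.0971), and only the groups compared that of HSPA4L with HMOX1si2 (0.0677).

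Summed HSPA1A and HSPA1B and summed HSPD1 and HSPE1 gave 0 chaperones with HMOX1si2 and 0 on average. The sum of HSPD1 and HSPE1 had -0.0778, -0.117, -0.0975 and -0.0395 in the 4 comparisons, where HSPD1 alone had the opposite sign. The sum of HSPA1A and HSPA1B had 0.00321 between the siRNAs, where HSPA1B alone was below 0. The length offset called 2 chaperones on average (sign changes: HSPH1 -0.0466 and HSPB1 0.166 with HMOX1si2, HSPB1 0.231 and HSP90AB1 0.0129 on average). DESeq2 size factors, no expression filter and HSPE1-MOB4 counts added to HSPE1 kept every chaperone call. For the other changes the cause was not tested.

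Leaving out each of the 6 libraries in turn gave 0 to 1492 genes called with HMOX1si1, 0 to 362 with HMOX1si2, 0 to 1594 on average and 19 to 204 between the siRNAs. It gave 0 to 1 chaperones called on average and 0 in each of the other comparisons. The log2 values that changed sign in these fits ranged, with HMOX1si1, from -0.00749 to 0.129 (HSPA8), -0.0550 to 0.124 (DNAJB1), -0.120 to 0.148 (HSPB1) and -0.0149 to 0.0308 (HSPD1). With HMOX1si2 they ranged from -0.0254 to 0.109 (HSPH1), -0.274 to 0.115 (HSPB1) and -0.0730 to 0.130 (HSPD1). On average they ranged from -0.0279 to 0.0165 (HSP90AB1), -0.158 to 0.111 (HSPB1), -0.0325 to 0.0687 (HSPD1) and -0.0790 to 0.0654 (FKBP4). Between the siRNAs they ranged from -0.0623 to 0.0934 (HSPA1A), -0.0651 to 0.0317 (HSPA1B), -0.00284 to 0.0963 (HSP90AA1), -0.0359 to 0.145 (DNAJB1), -0.282 to 0.107 (HSPB1), -0.0810 to 0.122 (HSPD1) and -0.0687 to 0.0237 (AHSA1). Where a group is left with 1 library, that library is assumed to vary like the other groups. With 2 libraries a group, intervals are wide: for HSPB1 the average reached from -0.38 to 0.32. The HMOX1 calls against siControl were lost without siControl replicate 1 (HMOX1si2 and average) or replicate 2 (all 3), with log2 values of -2.35 to -2.25 on average, and the HMOX1 difference between the siRNAs lost its call when any of the 6 libraries was left out. FKBP5 lost its HMOX1si1 call without either siControl or either HMOX1si1 library, and its HMOX1si2 call without either siControl library or HMOX1si2 replicate 1. AHSA1 with HMOX1si1 and HSPA4L with HMOX1si2 lost their calls when any 1 of the 6 was left out.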
